A study of Homo sapiens with 2 samples.

Results

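The E-protein genes TCF3, TCF4 and TCF12 and the genes of their inhibitors, ID1, ID2, ID3 and ID4, were examined in H9 cells, a line of human embryonic stem cells in long-standing use. The members were taken by gene name: 7 of the 20263 genes in the deposited table, with 110 of its 95139 transcripts. The cells had been treated for 48 h with siHNRNPA1, a small interfering RNA aimed at HNRNPA1, which encodes a regulator of splicing (below, the knockdown library), or with sicontrol (the control library). Each condition had 1 library, so no difference below has a replicate check, and no p-value is given. Both are labelled #1, which may number a culture or a small interfering RNA. The series concerns alternative splicing of TCF3 and self-renewal of human embryonic stem cells.

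E-proteins are transcription factors of the basic helix-loop-helix family. They pair through the helix-loop-helix, either with each other or with tissue-restricted partners, and bind the E-box sequence of target genes through the basic region. ID proteins have the helix-loop-helix but no basic region, so a dimer with an E-protein cannot bind DNA, and BMP signalling through SMAD proteins is a known inducer of ID genes. TCF3 gives rise to E12 and E47 by the use of one or the other of a pair of exons that each encode a basic helix-loop-helix. TCF3 and TCF4 here are the E-protein genes, not the WNT effectors TCF7L1 and TCF7L2 that once carried the same names.

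The ID genes are compact relatives of each other, and the 120 coding bases in which they are most alike are shown, since the family was measured by short reads. The stretch lies in the first exon of each gene, at chr20:31605586-31605705 (plus strand) for ID1, chr2:8682274-8682393 (plus) for ID2, chr1:23559184-23559303 (minus) for ID3 and chr6:19837950-19838069 (plus) for ID4, in GRCh38 coordinates and with the sequence of GENCODE release 29. Capitals mark the 68 bases that all 4 genes share.
ID1: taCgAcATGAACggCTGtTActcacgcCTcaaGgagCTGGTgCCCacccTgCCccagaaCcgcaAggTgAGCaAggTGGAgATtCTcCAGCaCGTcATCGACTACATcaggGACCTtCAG
ID2: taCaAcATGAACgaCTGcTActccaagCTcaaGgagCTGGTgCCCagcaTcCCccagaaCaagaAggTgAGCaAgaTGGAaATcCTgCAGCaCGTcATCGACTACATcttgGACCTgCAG
ID3: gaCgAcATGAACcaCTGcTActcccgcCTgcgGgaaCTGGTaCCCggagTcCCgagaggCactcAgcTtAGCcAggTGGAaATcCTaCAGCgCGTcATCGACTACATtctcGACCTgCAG
ID4: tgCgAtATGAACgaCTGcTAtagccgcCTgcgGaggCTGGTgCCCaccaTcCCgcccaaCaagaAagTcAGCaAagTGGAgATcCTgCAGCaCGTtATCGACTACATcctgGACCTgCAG
Pairs were identical at 69.2% (ID1 and ID3) to 83.3% (ID1 and ID2) of the bases of this stretch. Over the leading transcripts of the ID genes the longest run that any pair had in common was 21 bases, between ID1 and ID2.

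Depth was similar, with total estimated counts of 28147828 in the knockdown library and 26680342 in the control library. The mitochondrial chromosome contributed 18.1% and 28.2% of TPM, respectively. HNRNPA1 itself stood at 179.9 FPKM (fragments per kilobase of transcript, scaled to library size) in the knockdown library and 663 FPKM in the control library. The pluripotency markers listed for H9 cells were present, with all 10 at a mean of at least 1 FPKM and a sum of 2548 and 2550 FPKM. Of these 10, 3 were at least 2-fold lower in the knockdown library and 0 higher, with a median log2 fold of -0.20. Of all genes with at least that mean, 21.9% were lower and 12.4% higher, with a median of -0.13. Of the neural, mesoderm, endoderm and trophoblast markers 3 reached that mean (MAP2, TBX6 and KRT7), and GATA6, SOX17, CGA and TP63 were listed at 0 in both libraries. Of the 6 fibroblast markers 4 reached it, with a sum over the list of 218 FPKM in the knockdown library and 264 in the control library, while DCN and LUM were listed at 0 in both. These are bulk libraries, in which fewer cells of a type and less RNA per cell cannot be told apart.

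A gene's level was the sum of the FPKM of its transcripts, and folds are log2((siHNRNPA1 + 1)/(sicontrol + 1)) of FPKM, which understates the fold of a weakly expressed gene. Higher and lower calls needed a 2-fold difference and were made among genes with a mean of at least 1 FPKM, and all 7 members passed that minimum. Of the 7 members, 2 were at least 2-fold higher in the knockdown library (ID1 and ID3), against 12.4% of the 11921 genes kept. At least 2-fold lower were 3 members (TCF4, TCF12 and ID2), against 21.9% of the genes kept. TCF3 and ID4 were within 2-fold. The median log2 fold of all genes kept was -0.13, and -0.30 in TPM, -0.17 in counts scaled to library totals and close to 0 after rescaling by the median ratio. Of all genes past 2-fold, 36.2% were higher as deposited, 26.9% in TPM and 46.3% after rescaling by the median ratio.

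**Figure D1:**
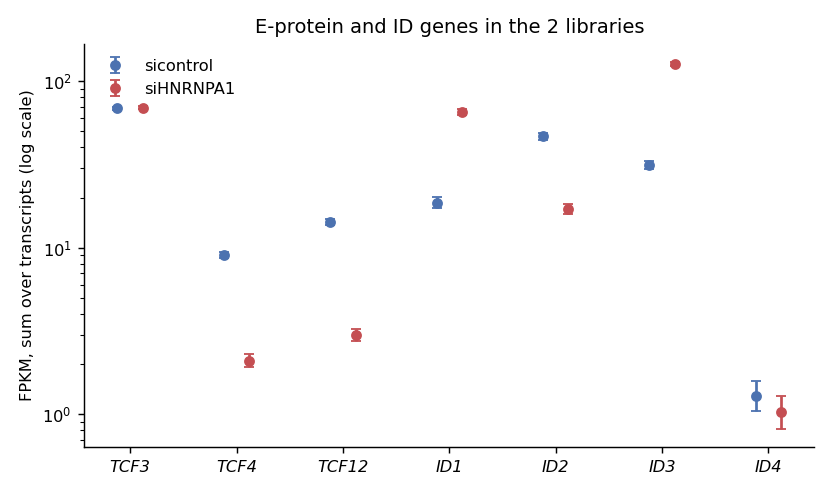
FPKM per gene on a log axis in the control (sicontrol, blue) and knockdown (siHNRNPA1, red) library, with 95% Poisson intervals that cover counting error only. ID1 and ID3 are higher and TCF4, TCF12 and ID2 lower in the knockdown library, while the TCF3 points lie at 68.8 and 69.3 FPKM.

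Among the E-protein genes, TCF3 was by far the most abundant and its gene level was nearly equal in both libraries, whereas TCF4 and TCF12 were several-fold lower after siHNRNPA1. TCF3 (ENSG00000071564, chromosome 19, 1609290 to 1652605, minus strand) had 69.3 FPKM (67.6 to 71.0, a 95% interval for counting error) after siHNRNPA1 and 68.8 FPKM (67.2 to 70.4) after sicontrol. Its log2 fold was 0.01 in FPKM, but -0.14 in TPM, -0.20 in counts scaled to library totals and 0.17 after rescaling by the median ratio, so its sign depends on the scaling. TCF12 (ENSG00000140262, chromosome 15, 56918623 to 57299281, plus strand), which encodes the E-protein HEB, had 2.99 FPKM (2.73 to 3.26) in the knockdown library and 14.3 FPKM (13.6 to 14.96) in the control library, a log2 fold of -1.94. TCF4 (ENSG00000196628, chromosome 18, 55222331 to 55664787, minus strand), which encodes the E-protein E2-2, had 2.09 FPKM (1.91 to 2.29) and 9.05 FPKM (8.64 to 9.46), a log2 fold of -1.70. For neither of these genes did the counting intervals of the libraries overlap. With a pseudocount of 5 FPKM, TCF4 stood at -0.99 and was no longer past 2-fold. TCF4 has exons that overlap the antisense RNA TCF4-AS2 and the pseudogene RPL21P126, and whether counting used the strand is not given in the sources used here.

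Among the inhibitors, ID1 and ID3 were each more than 3-fold higher, ID2 was lower, and ID4 was low in both libraries. ID3 (ENSG00000117318, chromosome 1, 23557918 to 23559794, minus strand) had 126 FPKM (123 to 129.8) in the knockdown library and 31.2 FPKM (29.5 to 33.0) in the control library, a ratio of 4.05 and a log2 fold of 1.98. ID1 (ENSG00000125968, chromosome 20, 31605283 to 31606515, plus strand) had 65.3 FPKM (62.6 to 68.1) and 18.7 FPKM (17.2 to 20.2), a ratio of 3.50 and a log2 fold of 1.75. ID2 (ENSG00000115738, chromosome 2, 8678845 to 8684453, plus strand) had 17.1 FPKM (16.0 to 18.4) and 46.5 FPKM (44.5 to 48.6), so that the sicontrol level was 2.72 times as high (log2 fold -1.39). Thus ID2 was the most abundant ID gene in the control library and only the third in the knockdown library. ID4 (ENSG00000172201, chromosome 6, 19837386 to 19840684, plus strand) had 1.03 FPKM (0.818 to 1.28) and 1.29 FPKM (1.04 to 1.58) from 81 and 94 counts, and its intervals overlapped. Exons of ID2 overlap those of the antisense RNA ID2-AS1.

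In order of level in the control library the members were TCF3, ID2, ID3, ID1, TCF12, TCF4 and ID4, and the counting intervals of no neighbours in that order overlapped. In the knockdown library the order was ID3, TCF3, ID1, ID2, TCF12, TCF4 and ID4. There the intervals of TCF3 (67.6 to 71.0 FPKM) and ID1 (62.6 to 68.1 FPKM) overlapped, and those of the other neighbours did not. These intervals hold no spread between cultures.

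The summed ID level was higher and the summed E-protein level slightly lower in the knockdown library. The ID genes together had 209.9 FPKM (205 to 214) in the knockdown library and 97.7 FPKM (94.6 to 101) in the control library. The E-protein genes together had 74.4 FPKM (72.7 to 76.1) and 92.1 FPKM (90.3 to 93.9). The ratio of ID to E-protein FPKM was thus 2.82 in the knockdown library and 1.06 in the control library, a difference of 1.41 on the log2 scale. The difference depended on single members. Without ID3 it was 0.64, without ID2 it was 2.22, and without TCF3 it was 3.30. Without any one of the other 4 members it lay between 1.18 (ID1) and 1.42 (ID4). These are transcript levels, and protein levels were not measured.

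**Figure D2:**
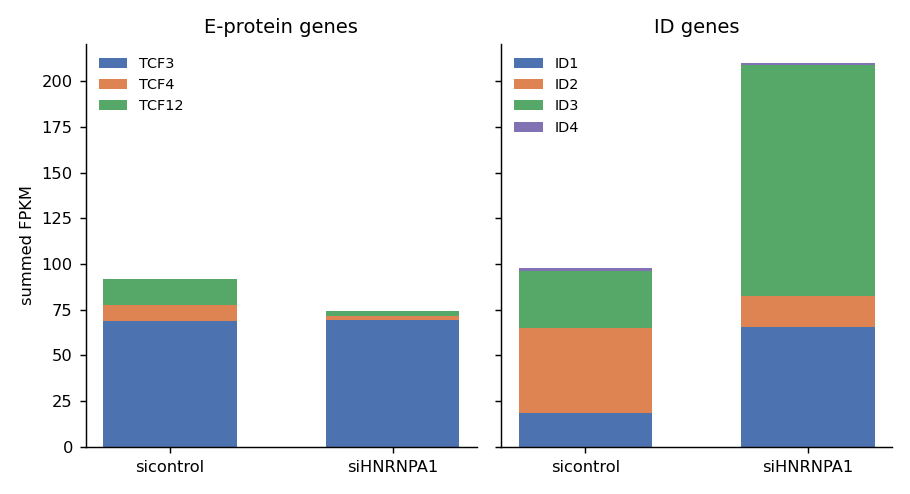
Summed FPKM of the E-protein genes (left) and ID genes (right) in each library, stacked by gene. The ID bar reaches 97.7 FPKM in the control library and 209.9 in the knockdown library, and the E-protein bar 92.1 and 74.4.

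The makeup of both families differed between the libraries. ID2 made up 47.6% of the ID total in the control library and 8.16% in the knockdown library. ID3 went from 32.0% to 60.2% and ID1 from 19.1% to 31.1%. TCF3 made up 74.7% of the E-protein total in the control library and 93.2% in the knockdown library. The remainder was TCF12 (15.5% and 4.02%) and TCF4 (9.82% and 2.81%). Together TCF4 and TCF12 had 23.3 FPKM in the control library and 5.08 in the knockdown library, while ID1 and ID3 together had 49.9 and 191.7 FPKM.

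Base composition and transcript length went with the folds of all genes, and the members are set beside genes of their own class. When all genes were ranked by the GC content of their leading transcript and split into 5 equal parts, the median log2 fold was -0.98 in the lowest part and 0.59 in the highest. TCF4 (GC content 40.0%) and TCF12 (40.1%) fell in the lowest group, where 15.4% and 9.19% of the genes had a lower fold. ID2 (44.2%) was in the second group, with a median of -0.61, where 18.1% of the genes had a lower fold than ID2. ID1 (57.6%) and ID3 (57.2%) were in the fourth group, with a median of 0.35, and 97.0% and 98.6% of its genes had lower folds. TCF3 (66.2%) was in the highest group and below its median, with 20.8% of the genes lower. By length, ID1 (994 nucleotides), ID2 (1362) and ID3 (1251) all fell in the shortest group, with a median of 0.50. In that group 95.1%, 3.19% and 97.5% of the genes had lower folds than ID1, ID2 and ID3. TCF4 (8317 nucleotides) was in the longest group, with a median of -0.89, where 13.01% of the genes had a lower fold. TCF12 (3956) and TCF3 (3585) were in the fourth by length, with a median of -0.44, where 5.04% and 67.6% of the genes had a lower fold. The TCF12 class is that of ENST00000343827, which was listed at 0 in the knockdown library. The leading TCF12 transcript there, ENST00000267811, has 6061 nucleotides, a length of the longest group. TCF4 and TCF12 were thus lower in classes whose medians were lower too. The part of base composition and length in the folds of the members was not tested.

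**Figure D3:**
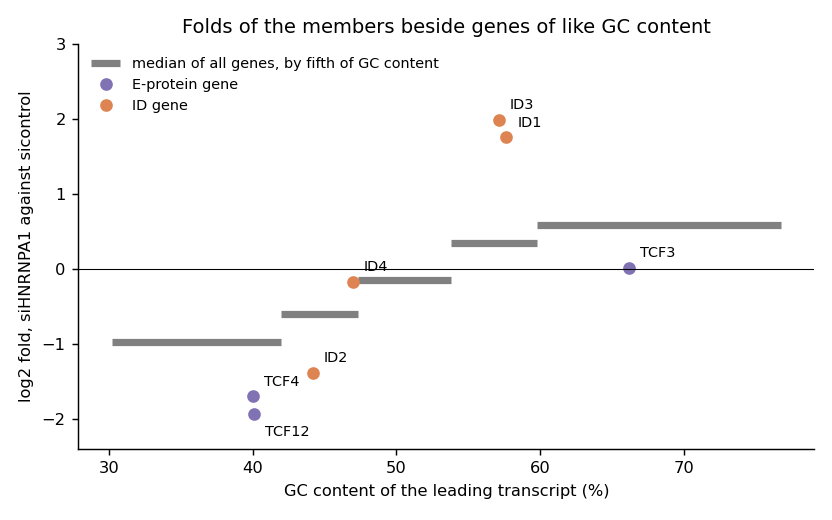
Log2 fold (siHNRNPA1 against sicontrol) against GC content of the leading transcript for the 7 members, with the median fold of all genes in each of the 5 parts of the GC ranking as grey bars. ID1 and ID3 lie above, and TCF4, TCF12 and ID2 below, the bar of their part of the ranking.

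TCF3 was next taken apart by transcript, because the series is about its splicing. All 18 TCF3 transcripts had counts in both libraries. A transcript was called full-length when its model spans at least 80% of the gene, which held for 6 of them. The other 12 are partial models. Of these, 10 have models that begin within the gene and lie in its 3′ part, and all 10 are annotated with their start not found. ENST00000587235 begins at the annotated 5′ end of the gene and ENST00000586318 near it, both with their end not found. All 12 are thus incomplete models. The full-length transcripts had 44.0 FPKM (42.9 to 45.2) in the knockdown library and 55.8 FPKM (54.5 to 57.2) in the control library, a log2 fold of -0.34. The partial models had 25.3 FPKM (23.8 to 26.8) and 12.9 FPKM (11.8 to 14.1), a log2 fold of 0.92. Without the 2 models of the 5′ part the values were 23.1 and 11.8 FPKM (0.91). The 12 partial models made up 36.5% of TCF3 FPKM in the knockdown library and 18.8% in the control library, or 17.7% and 6.93% of TCF3 counts. The nearly equal gene level of TCF3 is therefore the sum of a lower level on full-length models and a higher level on partial ones. Whether the partial models stand for separate short transcripts was not tested. The 3 models annotated as targets of nonsense-mediated decay, all among the partial ones, had 8.05 and 4.30 FPKM.

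Among the full-length transcripts the largest differences were between models of one protein. ENST00000262965, an E12 transcript, had 2.25 FPKM in the knockdown library and 17.9 in the control library (log2 fold -2.54). ENST00000611869 had 13.4 and 2.50 FPKM (2.04). Their coding parts are identical, their annotated starts are 2051 bases apart in the genome, and their exons differ in only 42 bases. Together they had 15.7 and 20.4 FPKM, so the sum differed far less than either model. Of the E47 transcripts, ENST00000453954, the leading TCF3 transcript in both libraries, had 15.05 and 24.5 FPKM (-0.67), ENST00000588136 had 10.5 and 8.39 FPKM (0.29), and ENST00000344749 had 0.133 and 1.54 FPKM (-1.16). Of the 10 TCF3 transcripts with a mean of at least 1 FPKM, 2 were at least 2-fold higher and 1 lower, against 21.3% and 23.4% of the 24624 transcripts kept. The second of the higher ones was ENST00000592628, a partial E12 model, with 5.93 and 1.92 FPKM.

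The other transcripts of TCF3 with at least 1 FPKM in either library were mostly higher in the knockdown library. The full-length E12 model ENST00000395423 had 2.68 and 1.01 FPKM in the knockdown and control library (log2 fold 0.87). The partial E12 models ENST00000593064 and ENST00000586164, the latter a decay target, had 5.25 and 2.38 FPKM (0.89) and 5.45 and 2.84 FPKM (0.75). ENST00000587425, a partial E12 model too, differed little, with 2.66 and 2.61 FPKM from 56 and 51 counts. Of the decay models that hold both exons of the pair, ENST00000592395 had 1.37 and 0.242 FPKM from 46 and 8 counts, and ENST00000585855 had 1.23 FPKM in each library. ENST00000587235, from the 5′ part of the gene, had 1.27 and 0.560 FPKM. Partial models have few counts and share their exons with the full-length ones.

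Transcripts with the E12 exon made up a larger share in the knockdown library. Models with the E12 exon (7 transcripts) had 37.6 FPKM in the knockdown library and 31.1 in the control library, and those with the E47 exon (6 transcripts) 26.4 and 34.6 FPKM. The E12 share of the sum was 58.7% and 47.4%, a difference of 11.4 percentage points. In counts, 3492 of 6254 in the knockdown library (55.8%, 95% exact binomial interval 54.6 to 57.1) and 3288 of 6911 in the control library (47.6%, 46.4 to 48.8) were on E12 models. Much of the difference lay in partial models. Among full-length transcripts alone the share was 41.7% and 38.3% of FPKM, a difference of 3.36 points, or 48.2% (46.9 to 49.6) and 44.5% (43.3 to 45.7) of counts. Among partial models assigned to E12 or E47, E12 models held 96.3% and 98.8% of FPKM. Partial models with both exons or neither are left out of that sum. The intervals treat each estimated count as an independent read and leave out errors in dividing reads between overlapping models.

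The transcript makeup of TCF3 as a whole differed by 38.8% of the gene's FPKM between the libraries. Part of this lay between ENST00000262965 (3.24% in the knockdown library and 26.0% in the control library) and ENST00000611869 (19.4% and 3.63%). Their coding parts are identical, and the 38.8% treats them as separate. Of 5715 genes with at least 2 transcripts and 5 FPKM in both libraries, 76.6% differed by less than TCF3, and the median was 18.5%. For ID1 and ID2 the values were 3.17% and 2.95%, as 1 transcript of each held nearly all of the level. The leading transcripts, ENST00000376112 of ID1 (61.3 and 16.9 FPKM) and ENST00000396290 of ID2 (16.7 and 44.9 FPKM), carried the difference of their genes. ENST00000376105, the unspliced ID1 model, had 4.08 and 1.76 FPKM (log2 fold 0.88). ENST00000331129 of ID2 had 0.0773 and 1.58 FPKM, from 2 and 31 counts. ID3 and ID4 have 1 transcript each in the table.

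TCF12 was listed with almost entirely different transcripts in the libraries. In the control library ENST00000343827, whose model starts within the gene and has a shorter coding part, had 6.87 FPKM, and the full-length ENST00000333725 had 5.72. Both were listed at 0 in the knockdown library. ENST00000267811 had 2.30 FPKM there and 0.298 in the control library, and was thus higher although the gene was lower. Another leading transcript in the knockdown library than in the control library was found for 32.2% of the 10543 genes kept with at least 2 transcripts, so such a change was frequent. A listed 0 may come from how the reads of overlapping models were divided. ENST00000333725 differs from ENST00000267811 in its coding part by an exon of 72 bases (chr15:57252421-57252492, plus strand, GRCh38, from GENCODE), shown because it parts the TCF12 models.
TCF12 exon: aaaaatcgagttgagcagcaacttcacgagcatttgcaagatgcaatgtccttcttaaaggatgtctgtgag
Models with this exon held 43.5% of TCF12 FPKM in the control library, and 866 of 1783 counts. In the knockdown library they held 23.0% of FPKM but only 37 of 501 counts. Of these 37 counts, 32 were on ENST00000559703, a model of 1544 nucleotides with 0.622 FPKM. The FPKM share there thus rests mostly on 1 short model.

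TCF4 has 71 transcripts in the table, of which 25 had counts in the control library and 8 in the knockdown library. The leading one in both was ENST00000356073, with 5.32 FPKM in the control library and 1.55 in the knockdown library (log2 fold -1.31). ENST00000638154 had 1.23 FPKM in the control library and was listed at 0 in the knockdown library. Over all 110 transcripts of the 7 genes, 26 had counts in the control library alone and 2 in the knockdown library alone, and 48 had none in either. Of the 26, 18 were models of TCF4, which had 1881 counts in the control library and 476 in the knockdown library. The same shares were not worked out for all transcripts, so nothing particular to the members is read from these numbers.

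Among listed genes of the BMP and SMAD pathway, whose signal is known to induce ID genes, many were lower. The list mixes genes that carry this signal with genes that restrain it, so its tally and median do not measure the signal. Of 24 listed genes 17 were kept, of which 8 were at least 2-fold lower and 1 higher, against 21.9% and 12.4% of all genes. Their median log2 fold was -0.84, against -0.13 for all genes. The BMP effector genes SMAD1 (1.08 FPKM in the knockdown library and 11.2 in the control library, log2 fold -2.55) and SMAD5 (1.75 and 10.7 FPKM, -2.10) were among the lower. So were the receptor gene BMPR1A (2.49 and 12.3 FPKM, -1.93) and SMURF2, a ubiquitin ligase that acts on SMADs (1.79 and 9.45 FPKM, -1.90). SMAD1, SMAD5 and SMURF2 have exons that overlap an antisense transcript. GDF3, a TGF-beta family ligand of pluripotent cells, was the 1 higher gene, with 17.9 and 5.78 FPKM (1.48). It was named after its value was seen. The leading transcripts of the kept genes had a median GC content of 49.7%, in the middle part of the GC ranking. All of the 8 lower genes but SMAD1 were in its lowest or second part, where 48.7% and 33.9% of all genes were lower. Most of the 8, though not SMAD1 or SMURF2, were in the longest part by length. There 43.8% of all genes were lower and the median was -0.89. The part of base composition and length in these folds was not tested.

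Tissue-restricted partners of the E-proteins were scarce in both libraries. Only 4 of 27 listed class II basic helix-loop-helix genes reached a mean of 1 FPKM, and 7 were listed at 0 in both libraries, among them MYOD1 and NEUROG2. TCF15 (3.82 FPKM in the knockdown library and 1.10 in the control library, log2 fold 1.20) and MSC (4.96 and 1.76 FPKM, 1.11) were at least 2-fold higher, 2 of the 4 kept against 12.4% of all genes. Both, and SCX, are in the part of the genes highest in GC content, where 28.3% were at least 2-fold higher and the median was 0.59. SCX stood at 0.73 and TWIST2 at -0.84. MSC has exons that overlap the antisense RNA MSC-AS1. Among 7 kept genes of other basic helix-loop-helix repressors, which bind DNA mostly as dimers among themselves, none was called past 2-fold. Of all genes, 21.9% were lower and 12.4% higher. HES4 (0.73), HES6 (0.67), HES1 (0.40) and HEY2 (-0.35) had the largest folds, and the list median was 0.04. Without the pseudocount the ratio of HES4 was 2.05 (3.37 FPKM in the knockdown library and 1.64 in the control library).

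Cofactors of the E-proteins were lower in 6 of 11 kept cases and higher in 1, with a median log2 fold of -1.17. Of all genes 21.9% were lower and 12.4% higher, with a median of -0.13. The median GC content of the kept cofactors, 52.0%, falls in the middle part of the GC ranking, where 17.8% of genes were lower and the median was -0.15. By length, all of the 6 lower cofactors but CBFA2T2 were in the longest part, where 43.8% of genes were lower and the median was -0.89. The part of length in these folds was not tested. The acetyltransferase gene EP300 had 7.55 FPKM in the knockdown library and 28.7 in the control library (-1.80). CBFA2T2, an ETO family corepressor, had 2.23 and 7.14 FPKM (-1.33). In counts scaled to library totals CBFA2T2 stood at -0.72, within 2-fold. TRIM33, a ubiquitin ligase that binds SMADs, had 2.46 and 7.67 FPKM (-1.33). PRDM14, a pluripotency regulator that works with CBFA2T2, was higher at 46.5 and 14.3 FPKM (1.64). EP300 overlaps other transcripts on both strands.

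Among splicing factors tied to the TCF3 exon pair, 4 of 7 kept genes were lower by 2-fold or more, and 0 were higher, with a median of -1.002, against 21.9%, 12.4% and -0.13 for all genes. Their median GC content of 45.4% falls in the second part of the GC ranking, where 33.9% of genes were lower and the median was -0.61. HNRNPA1, with a log2 fold of -1.88, is 1 of these 4. The tally and the median thus include the gene that the treatment was aimed at. PTBP2 had 0.680 FPKM in the knockdown library and 9.23 in the control library (-2.61), HNRNPH1 82.7 and 188 FPKM (-1.18), and SRSF1 62.2 and 126 FPKM (-1.002). SRSF1 lies just past the 2-fold line in FPKM and overlaps other transcripts on both strands. In counts scaled to library totals HNRNPH1 stood at -0.72 and SRSF1 at -0.62, both within 2-fold. PTBP2 (-3.31) and HNRNPA1 (-1.89) stayed past it on that scale. ESRG was not analysed here.

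Of the genes linked to E-proteins and IDs, CDH1, which encodes E-cadherin and is repressed by E47 in epithelial cells, stood at 15.9 FPKM after siHNRNPA1 and at 46.9 FPKM in the control library (log2 fold -1.50). CDKN1A, a cell cycle inhibitor that E-proteins activate and IDs oppose, had 1.82 and 0.191 FPKM (1.24), from 133 and 13 counts. CDKN1C, another cell cycle inhibitor, had 3.76 and 10.9 FPKM (-1.32). CDH1 and CDKN1A have exons that overlap an antisense transcript.

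**Figure D4:**
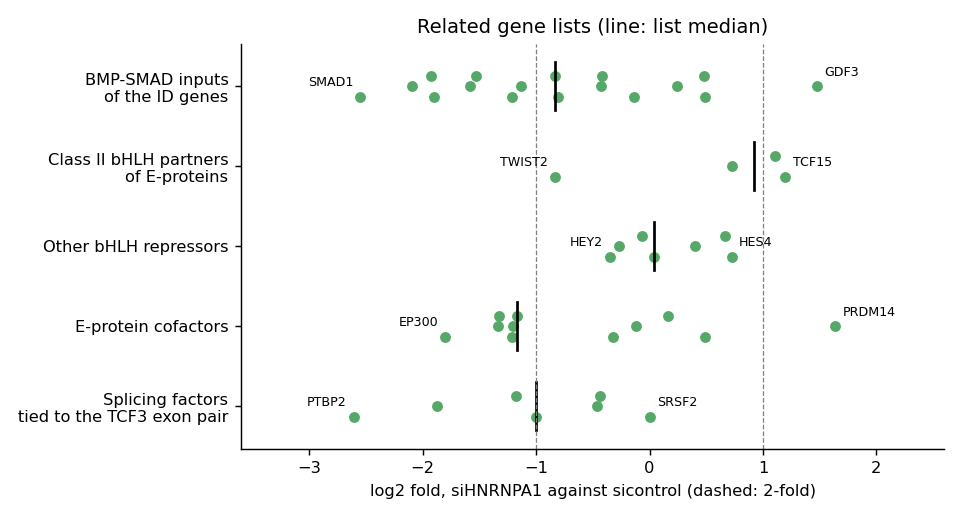
Log2 folds (siHNRNPA1 against sicontrol) of the kept genes of each related list, 1 point per gene, with the list median as a black line and 2-fold as dashed lines. The medians run from -1.17 for the E-protein cofactors to 0.92 for the 4 class II partners, and the genes at the ends of each list are named.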

How the data were processed

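RNA-seq of H9 cells was compared between 1 siHNRNPA1 and 1 sicontrol library. Messenger RNA libraries were made from column-purified total RNA, per the labels' protocols. The authors deposited 1 table of transcripts, per the file headers. The deposited counts are whole numbers but overlapping transcripts each carry counts, so they were treated as estimated counts. Deposited TPM added up to 1000000 in each library. Deposited FPKM added up to 520633 (siHNRNPA1) and 468831 (sicontrol). The aligner and the counting tool were not given in the sources used here. Mouse builds (GRCm38, mm10) appear in the submitters' processing notes, but 95033 of the 95139 transcripts are human models of GENCODE release 29 (GRCh38), and 93426 have the same position there. Another 6 columns with values of single samples were left unused.

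FPKM was summed per gene, and folds used a pseudocount of 1 FPKM and a minimum mean of 1 FPKM. Exact Poisson intervals on counts (95%) were scaled to FPKM. They, and the exact binomial intervals on shares, cover counting error only. Transcript models, GC content and exon sequences came from GENCODE. TCF3 models were assigned to E12 or E47 by the exon of the pair that they overlap. Models with both or neither (5 transcripts) were left out of the share. The members, gene lists and rules were chosen with earlier results of these data known. Named were the members, their transcripts of at least 1 FPKM in either library, HNRNPA1, CDH1, CDKN1A, CDKN1C, and the 4 largest absolute folds of each related list. The fold calculation was tested on simulated data. Python 3.11.15, pandas 2.3.3 and SciPy 1.17.1 were used. Other pseudocounts, scalings, minimums and transcript sets were tried as alternatives. The sequences of the TCF3 exon pair are not reported here.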

Additional observations from a re-analysis of the deposited data

How the results depend on the processing

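No paired analysis was possible because each condition had 1 library. Within the 7 members, ID2, ID3 and TCF12 stayed past 2-fold in the same direction under all 6 alternatives each (pseudocounts of 0.1 and 5 FPKM, TPM, counts scaled to library totals, median ratio scaling, transcripts of at least 1000 nucleotides). ID1 stood at 0.88 when transcripts under 1000 nucleotides were left out, because its leading transcript has 994, and the number of members at least 2-fold higher was then 1. TCF4 was within 2-fold at a pseudocount of 5 FPKM, and the sign of TCF3 turned with 3 of 6. The log2 difference of the ID to E-protein ratio was 1.65 in counts and 1.32 with transcripts of at least 1000 nucleotides. Leaving out members, an alternative chosen after seeing the data, gave 3.30 without TCF3, 1.30 without TCF4, 1.23 without TCF12, 1.18 without ID1, 2.22 without ID2 and 0.64 without ID3. Full-length TCF3 stood at -0.49 in TPM and -0.18 after median ratio scaling. The partial TCF3 models stood at 0.76 with a pseudocount of 5 FPKM, 1.11 in counts scaled to library totals and 1.07 after median ratio scaling, the last 2 past 2-fold. The difference in E12 share was 8.26 points in counts and, chosen after seeing the data, 3.36 points among full-length transcripts. The other 28 alternatives of these summary values stayed within the counting interval or within 1.5 times the count. Of the alternatives for single genes, 20 moved the fold by more than its counting interval and 22 did not, and TCF3 was the gene whose sign turned. ID4, with 81 and 94 counts, is limited by depth.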
